A study of Danio rerio with 8 samples.

Results

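The antioxidant and redox genes described here are 62 of the 31953 zebrafish gene rows in a bulk RNA-seq count table. They were chosen by name: every row whose gene name begins with the symbol of a glutathione peroxidase (gpx), peroxiredoxin (prdx), thioredoxin-family gene (txn), glutathione transferase (gst, mgst), superoxide dismutase (sod), glutamate-cysteine ligase subunit (gclc, gclm), glutaredoxin (glrx), haem oxygenase (hmox), nqo1 or srxn1, or is cat (catalase) or gsr (glutathione reductase). After gpx, prdx and sod a digit had to follow, and after gst and any letters a digit or a dot. Genes of these families under other names were not taken, so family statements cover the matched rows only. The name rule uses no measured value, although the redox genes were chosen with earlier results of these data known. The name rule also took in txnip, a thioredoxin inhibitor, and 9 thioredoxin-like genes (txndc and txnl) whose products act in protein folding, splicing or trafficking as well as in redox reactions.

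Cells of the zebrafish pancreas were sorted at 30 days post fertilization (dpf), and their RNA was sequenced by Smart-Seq2, a full-length cDNA protocol. The 3 groups were sst1.1+ins+ cells, positive for both reporters (3 libraries), ins+ cells, positive for the insulin reporter alone (2 libraries), and sst1.1+ cells, positive for the somatostatin 1.1 reporter alone (3 libraries). Insulin is the hormone of islet beta cells and somatostatin that of islet delta cells. All 3 groups carried the same genotype, Tg(ins:BB1.0L) with TgBAC(sst1.1:memEGFP), at the same age and with growth given as Normal. Both transgenes are reporters driven by hormone gene promoters, so a group is defined by promoter activity and the sort. The labels do not say how many animals were pooled for a library or whether replicates came from separate animals, so a p-value speaks only of how far these libraries spread, and that spread may be technical.

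Peroxides formed in a cell are reduced by catalase, by glutathione peroxidases and by peroxiredoxins. Glutathione peroxidases draw their electrons from glutathione, most peroxiredoxins draw theirs from thioredoxin, and both carriers are recharged with NADPH by their reductases. In mammals, beta cells are known for low catalase and glutathione peroxidase expression compared with other tissues, and for strong induction of Txnip by glucose.

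The table held 16948429 to 30374029 gene counts per library, and the redox genes took 0.309 to 0.394% of them. Of the 62 redox genes, 51 to 58 had a count in each library, 57 passed the filter on low counts and 5 were not tested: GSTK1 (1 of 4), gstt1a, mgst1.2, sod3a and txnrd2, the last of which had no count in any library. The gene ins took 11.1 to 13.1% of gene counts in sst1.1+ins+ libraries, 23.8 and 25.8% in ins+ libraries and 0.0643 to 0.125% in sst1.1+ libraries. The gene sst1.1 took 16.7 to 20.2% in sst1.1+ins+ libraries, 5.56 and 4.35% in ins+ libraries and 25.4 to 28.8% in sst1.1+ libraries, so ins+ libraries held sst1.1 counts although that group is named for the insulin reporter alone. The EGFP row, which bears the name of the sst1.1 transgene's fluorescent protein, took 0.319 to 0.358% of all counts in sst1.1+ins+ libraries. It took 0.0200 and 0.0281% in ins+ libraries and 0.618 to 0.810% in sst1.1+ libraries. No count in any library was found for 3 of 9 hepatocyte markers (fabp10a, fga, serpina1). The same held for 3 of 5 erythrocyte markers (hbbe1.1, alas2, gata1a) and 3 of 5 endothelial markers (pecam1, fli1a, tie1). The whole hepatocyte list summed to 9.23 to 43.5 CPM in sst1.1+ins+ libraries, 6.38 and 41.0 CPM in ins+ libraries and 12.3 to 51.3 CPM in sst1.1+ libraries. The erythrocyte and endothelial lists summed to at most 2.09 and 0.847 CPM in a library.

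Abundances below are CPM, a gene's count scaled to the total of its library, with totals adjusted by the trimmed mean of M values (TMM), and replicates are listed in the order 1, 2, 3. Differences are log2 fold changes from edgeR's quasi-likelihood test with their standard errors (SE), and a gene passed the test at a Benjamini-Hochberg adjusted p under 0.05 over all 16418 genes tested. CPM is not divided by transcript length, so levels are compared between groups for 1 gene and not between genes. In bulk samples, fewer cells of a type and less RNA per cell cannot be told apart.

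Between ins+ and sst1.1+ cells, 6 of 57 tested redox genes passed the test. The 4 that were higher in ins+ cells were gpx3, gstp1, cat and txnipa, and the 2 that were lower were prdx4 and mgst2. Over all genes tested, 1.61% were higher and 2.42% lower in this comparison. The median log2 fold change was -0.11 over the tested redox genes and -0.07 over all genes. In sst1.1+ins+ against sst1.1+ cells 2 redox genes passed, gpx3 and gstp1, both higher in sst1.1+ins+ cells, where 0.177% of all genes were higher and 0.0305% lower. In sst1.1+ins+ against ins+ cells 1 redox gene passed, txnipa, which was lower in sst1.1+ins+ cells, where 0.755% of all genes were higher and 0.164% lower. An unadjusted p under 0.05 was found for 24.6% of tested redox genes and 17.6% of all genes between ins+ and sst1.1+ cells, for 14% and 7.89% between sst1.1+ins+ and sst1.1+ cells, and for 12.3% and 12.1% between sst1.1+ins+ and ins+ cells. The comparisons share libraries, so the same gene's values in any 2 of them are not independent.

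The glutathione peroxidases were led by gpx3 (ENSDARG00000043342), which encodes the secreted, plasma form of the enzyme in mammals. Its level was 285.6, 374.9 and 353.9 CPM in sst1.1+ins+ libraries, 540.8 and 653.6 CPM in ins+ libraries, and 126.9, 175.7 and 148.8 CPM in sst1.1+ libraries. The 3 groups did not overlap: the ins+ libraries were the highest and the sst1.1+ libraries the lowest. The log2 fold change was 1.99 ± 0.18 between ins+ and sst1.1+ cells (3.97-fold, edgeR adjusted p = 9.09e-05) and 1.17 ± 0.17 between sst1.1+ins+ and sst1.1+ cells (2.25-fold, edgeR adjusted p = 0.0145). At -0.82 ± 0.18, the change between sst1.1+ins+ and ins+ cells did not pass with edgeR (adjusted p = 0.0714), while DESeq2 gave an adjusted p of 0.000824, limma-voom one of 0.00942 and edgeR with no filter on low counts one of 0.00292. The call between sst1.1+ins+ and sst1.1+ cells was lost without sst1.1+ins+ replicate 2 or 3 or without sst1.1+ replicate 1 or 3, with adjusted p reaching 0.0856.

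None of the other 6 glutathione peroxidase genes passed the test in any comparison with edgeR or DESeq2, and gpx4b between ins+ and sst1.1+ cells was the 1 among them with an unadjusted p under 0.05. The cytosolic gpx1a stood at 82.7, 92.9 and 74.6 CPM in sst1.1+ins+ libraries, 85.1 and 94.7 CPM in ins+ libraries and 70.4, 83.1 and 56.5 CPM in sst1.1+ libraries. Both ins+ libraries were just above all sst1.1+ libraries, and the sst1.1+ins+ libraries overlapped both groups, with a log2 fold change of 0.36 between ins+ and sst1.1+ cells (edgeR adjusted p = 0.405). The 2 copies of gpx4, which reduces lipid peroxides within membranes, did not pass either. The log2 fold change of gpx4a between ins+ and sst1.1+ cells was -0.11, with a 95% interval of -0.46 to 0.24, and that of gpx4b was -0.43, with an interval of -0.84 to -0.02 and an edgeR adjusted p of 0.262. The share of gpx4a in the counts of both copies was 47.6 to 52.2% in sst1.1+ins+ libraries, 52.8 and 53.7% in ins+ libraries and 42.2 to 55.6% in sst1.1+ libraries. The remaining gpx1b, gpx7 and gpx8 averaged under 5 CPM in every group. Summed over the 7 genes the family reached 804.5 ± 34.5 CPM in sst1.1+ins+ cells, 1029 ± 72.7 CPM in ins+ cells and 635.5 ± 64.5 CPM in sst1.1+ cells (SD, n = 3, 2 and 3). Without gpx3 the sums were 466.4 ± 28.4, 431.6 ± 7.04 and 485.0 ± 46.9 CPM in the same order of groups.

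Catalase (cat), the peroxisomal enzyme that splits hydrogen peroxide into water and oxygen, was at 162.4, 146.4 and 158.3 CPM in sst1.1+ins+ libraries, 173.0 and 168.6 CPM in ins+ libraries, and 100.6, 90.0 and 97.6 CPM in sst1.1+ libraries. The sst1.1+ libraries lay below all others, and the sst1.1+ins+ libraries lay just below the ins+ libraries without overlap. Catalase was higher by a log2 fold change of 0.83 ± 0.16 between ins+ and sst1.1+ cells (1.78-fold, edgeR adjusted p = 0.0109), and the call was lost without either ins+ library, with adjusted p of up to 0.0713. The change of 0.70 ± 0.14 between sst1.1+ins+ and sst1.1+ cells did not pass with edgeR (adjusted p = 0.101), while DESeq2 gave an adjusted p of 0.000362 and limma-voom one of 0.0366. Against ins+ cells, sst1.1+ins+ cells differed by -0.13, with a 95% interval of -0.48 to 0.21.

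The superoxide dismutases, which turn superoxide into hydrogen peroxide, did not pass the test with edgeR, DESeq2 or limma-voom in any comparison, nor was an unadjusted p under 0.05 with edgeR. The cytosolic sod1 was at 159.0, 150.4 and 166.3 CPM in sst1.1+ins+ libraries, 181.3 and 167.0 CPM in ins+ libraries and 126.5, 138.6 and 167.8 CPM in sst1.1+ libraries. Its log2 fold change between ins+ and sst1.1+ cells was 0.27, with a 95% interval of -0.10 to 0.64. For the mitochondrial sod2 it was 0.18, with an interval of -0.30 to 0.66, and the levels of 70.0, 57.8 and 63.6 CPM in sst1.1+ins+ libraries, 77.9 and 69.6 CPM in ins+ libraries and 80.7, 59.0 and 55.2 CPM in sst1.1+ libraries overlapped. The extracellular sod3b had 25, 6 and 10 counts in sst1.1+ins+ libraries, 0 and 0 in ins+ libraries and 0, 0 and 3 in sst1.1+ libraries. Every sst1.1+ins+ library was above the floor of 3 counts, and every library of the other groups was at or under it. The gene averaged 0.221 CPM over all libraries and passed the filter on low counts through its sst1.1+ins+ libraries. The log2 fold changes of sst1.1+ins+ cells were 6.69 against ins+ and 3.5 against sst1.1+ cells (edgeR adjusted p = 0.475 and 0.892). The share of all genes with such a pattern was not counted.

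**Figure D1:**
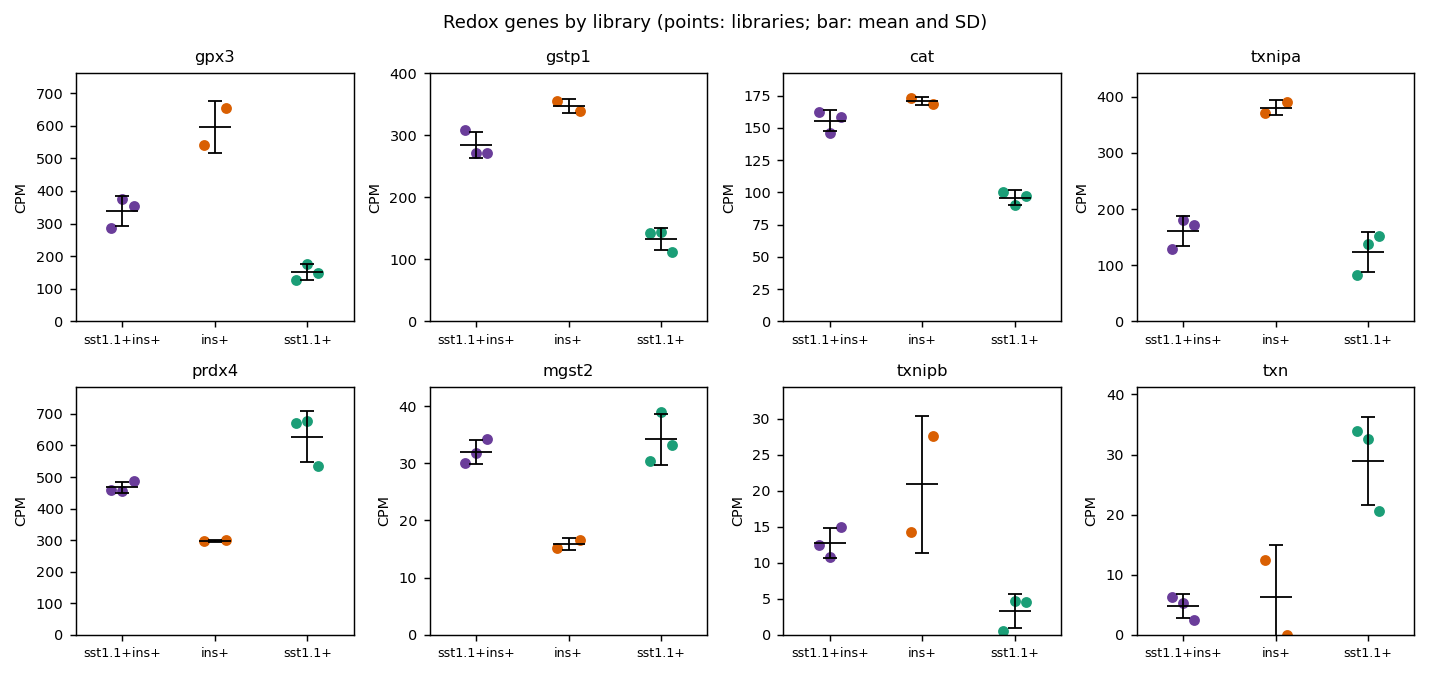
CPM (y axis, linear from 0) of 8 redox genes in each library of the 3 groups (x axis): the 6 that passed the test in any comparison, then txnipb and txn, which did not. Points are libraries and the bar with its error is the mean and SD. For gpx3 the 3 groups do not overlap, txnipa is high in the 2 ins+ libraries alone, and txn differs between the 2 ins+ libraries (12.4 and 0 CPM).

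Between ins+ and sst1.1+ cells, the log2 fold changes of the peroxiredoxins had the sign opposite to those of gpx3 and cat. Of the 7 glutathione peroxidase genes, 5 likewise had a negative log2 fold change there. All 6 peroxiredoxins had a negative log2 fold change between ins+ and sst1.1+ cells, with a median of -0.53, where 47% of all genes had a positive one. All 6 had a positive one between sst1.1+ins+ and ins+ cells, with a median of 0.54, where 53.8% of all genes did. Both comparisons use the same 2 ins+ libraries, so the 2 sets of signs are not independent. The 6 genes were measured in the same libraries, so the signs within a set are not independent either. These signs were the same with size factors (RLE), with library totals and with totals that left out hormone and mitochondrial genes. Only prdx4 passed the test, in the first of these comparisons. Unadjusted p was under 0.05 for 2 of the 6 between ins+ and sst1.1+ cells, for 1 between sst1.1+ins+ and sst1.1+ cells and for 3 between sst1.1+ins+ and ins+ cells. Of all genes, 17.6%, 7.89% and 12.1% had such a p in the same order. DESeq2 called 2, 1 and 1 of them in these comparisons, and 1677, 272 and 775 of all 16418 genes.

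The product of prdx4 (ENSDARG00000069013) is the peroxiredoxin of the endoplasmic reticulum (ER), where it uses peroxide to drive disulfide formation in newly made proteins. Its level was 457.7, 456.6 and 486.1 CPM in sst1.1+ins+ libraries, 295.8 and 299.3 CPM in ins+ libraries, and 671.4, 676.0 and 533.7 CPM in sst1.1+ libraries. The groups did not overlap, with sst1.1+ins+ cells between the other groups. Its log2 fold change was -1.07 ± 0.15 between ins+ and sst1.1+ cells (edgeR adjusted p = 0.00212), which is 2.11-fold lower in ins+ cells. It was -0.43 ± 0.13 between sst1.1+ins+ and sst1.1+ cells (edgeR adjusted p = 0.404) and 0.65 ± 0.15 between sst1.1+ins+ and ins+ cells (edgeR adjusted p = 0.0809). DESeq2 gave adjusted p of 0.0452 and 0.000721 for these 2 changes. The second passed in 4 of 18 alternatives, limma-voom among them (adjusted p = 0.0373).

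None of the other 5 peroxiredoxins passed with edgeR. The row named prdx2, whose identifier the names table assigns to PRDX1, was at 80.9, 73.2 and 71.0 CPM in sst1.1+ins+ libraries, 48.4 and 53.7 CPM in ins+ libraries and 84.7, 82.7 and 67.2 CPM in sst1.1+ libraries. Both ins+ libraries were below all 6 others, with a log2 fold change of -0.61 ± 0.20 between ins+ and sst1.1+ cells that did not pass (edgeR adjusted p = 0.125). The mitochondrial prdx3 was at 109.0, 102.7 and 109.0 CPM in sst1.1+ins+ libraries, 78.2 and 71.3 CPM in ins+ libraries and 119.2, 107.9 and 77.6 CPM in sst1.1+ libraries, so sst1.1+ replicate 3 fell among the ins+ libraries. For prdx5, found in mitochondria, peroxisomes and cytosol in mammals, the log2 fold change between ins+ and sst1.1+ cells was -0.19, with a 95% interval of -0.51 to 0.12. For prdx6, which draws on glutathione, it was -0.36, with an interval of -0.78 to 0.06. The row named prdx1 averaged under 5 CPM in every group, and its log2 fold change of -1.13 between ins+ and sst1.1+ cells did not pass (edgeR adjusted p = 0.606). Summed over the 6 genes, peroxiredoxins reached 913.5 ± 15.7 CPM in sst1.1+ins+ cells, 668.2 ± 3.57 CPM in ins+ cells and 1097 ± 121 CPM in sst1.1+ cells (SD, n = 3, 2 and 3). Without prdx4 the sums were 446.7 ± 6.97, 370.7 ± 5.99 and 469.6 ± 40.8 CPM in the same order.

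**Figure D2:**
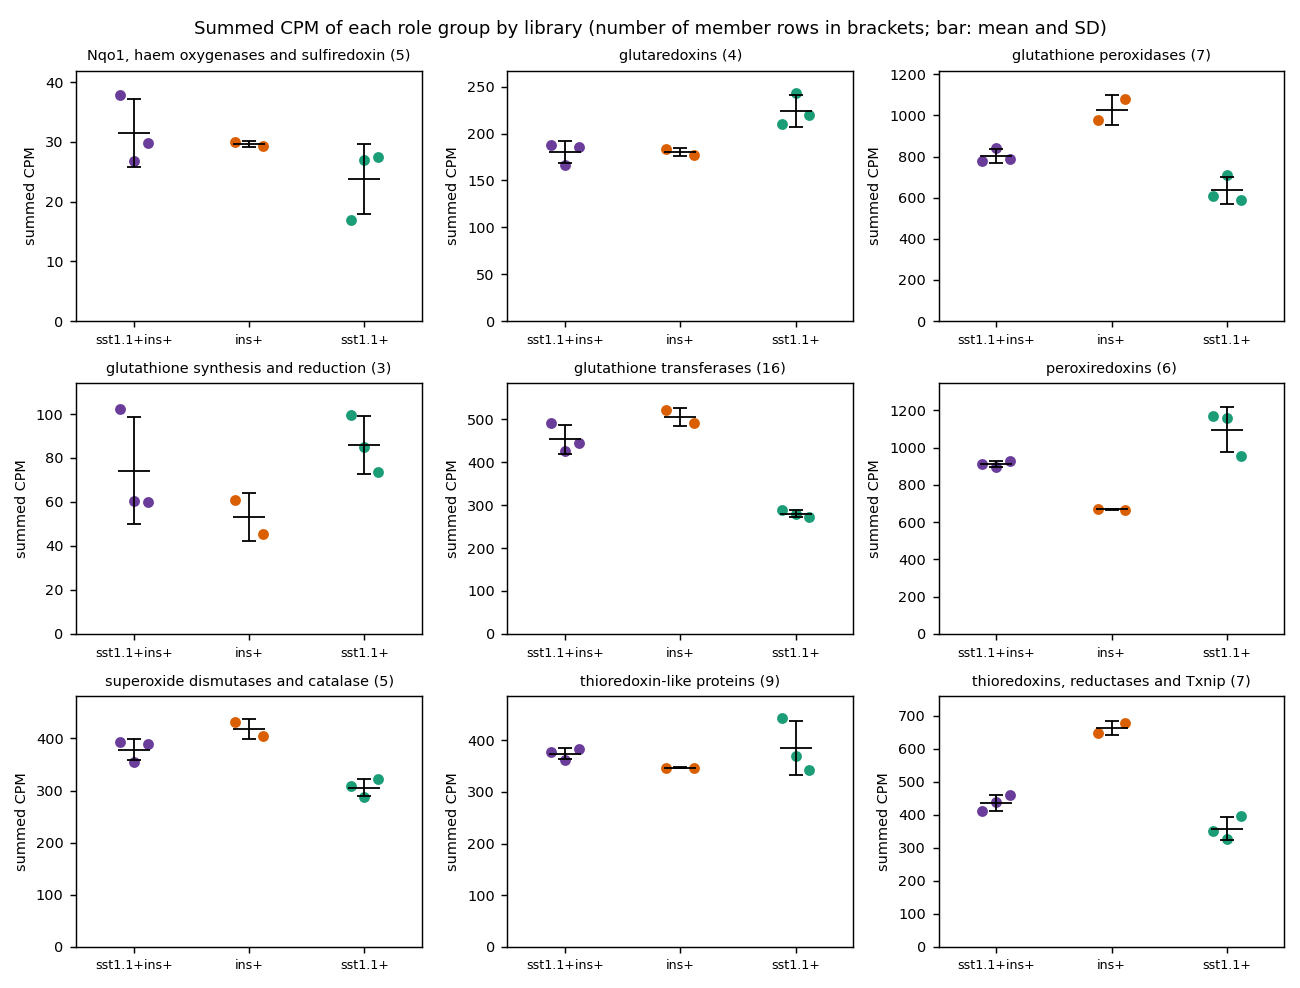
Summed CPM (y axis, linear from 0) of the redox genes of each role in each library of the 3 groups (x axis), with the number of gene rows in brackets. Points are libraries and the bar with its error is the mean and SD. Glutathione peroxidase sums are highest in ins+ cells (1029 CPM on average) and peroxiredoxin sums are lowest there (668.2 CPM), while sums are not divided by length and each is carried by a few genes.

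In the thioredoxin system, txnipa rather than the thioredoxins or their reductases passed the test. Txnip binds thioredoxin and inhibits it, and it also restrains glucose uptake. The level of txnipa (ENSDARG00000036107) was 129.8, 181.4 and 171.1 CPM in sst1.1+ins+ libraries, 371.7 and 389.9 CPM in ins+ libraries, and 83.2, 137.1 and 151.4 CPM in sst1.1+ libraries. Both ins+ libraries were above all 6 others, and the sst1.1+ins+ and sst1.1+ libraries overlapped. It was 3.07-fold higher in ins+ than in sst1.1+ cells (log2 fold change 1.62 ± 0.24, edgeR adjusted p = 0.00275). It was 2.37-fold lower in sst1.1+ins+ than in ins+ cells (log2 fold change -1.24 ± 0.24, edgeR adjusted p = 0.0337), a call lost without any 1 of the sst1.1+ins+ replicates 1, 2 and 3, the ins+ replicates 1 and 2 and sst1.1+ replicate 2, with adjusted p of up to 0.153. Against sst1.1+ cells, the log2 fold change in sst1.1+ins+ cells was 0.38, with a 95% interval of -0.10 to 0.85.

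Its copy txnipb was much less counted, at 12.4, 10.7 and 14.9 CPM in sst1.1+ins+ libraries, 14.2 and 27.6 CPM in ins+ libraries and 0.571, 4.71 and 4.50 CPM in sst1.1+ libraries. All sst1.1+ libraries lay below all others, yet no comparison passed with edgeR: the log2 fold change was 2.68 ± 0.72 between ins+ and sst1.1+ cells (adjusted p = 0.0624) and 1.96 ± 0.66 between sst1.1+ins+ and sst1.1+ cells (adjusted p = 0.454). The first of these passed in 5 of 18 alternative settings, DESeq2 among them (adjusted p = 0.00477). The 2 genes are paralogs, and how reads matching both copies were assigned is not given in the sources used here.

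The row named txn, a cytosolic thioredoxin that the names table lists as txnb, was at 6.31, 5.35 and 2.47 CPM in sst1.1+ins+ libraries, 12.4 and 0 CPM in ins+ libraries, and 33.8, 32.5 and 20.5 CPM in sst1.1+ libraries. Every sst1.1+ library was above every other library. The 2 ins+ libraries held 249 and 0 counts of it. For this row, sst1.1+ins+ cells differed from sst1.1+ cells by a log2 fold change of -2.62 ± 1.05 (edgeR adjusted p = 0.577), and over 18 alternatives its adjusted p ran from 0.000677 to 0.898, passing in 3. The mitochondrial txn2 averaged 17.0 ± 4.07 CPM in sst1.1+ins+ cells, 19.0 ± 1.13 CPM in ins+ cells and 14.8 ± 5.08 CPM in sst1.1+ cells (SD, n = 3, 2 and 3).

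Of the thioredoxin reductases, the row named txnrd1, listed as TXNRD3 in the names table, was at 234.2, 220.1 and 254.2 CPM in sst1.1+ins+ libraries, 228.4 and 236.4 CPM in ins+ libraries, and 212.7, 139.0 and 197.3 CPM in sst1.1+ libraries. All sst1.1+ libraries were below all others, but the log2 fold changes of 0.34 ± 0.19 between ins+ and sst1.1+ cells (edgeR adjusted p = 0.373) and 0.37 ± 0.17 between sst1.1+ins+ and sst1.1+ cells (edgeR adjusted p = 0.636) did not pass. The row TXNRD2 (1 of 2) averaged 5.47 CPM in sst1.1+ins+ cells, 2.71 CPM in ins+ cells and 4.19 CPM in sst1.1+ cells.

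Among the 9 thioredoxin-like genes none passed with edgeR in any comparison, 1 in each comparison had an unadjusted p under 0.05, and DESeq2 called 1, txndc12, between ins+ and sst1.1+ cells. This gene, whose product resides in the ER, was at 58.5, 64.6 and 61.6 CPM in sst1.1+ins+ libraries, 42.9 and 31.7 CPM in ins+ libraries and 99.8, 58.9 and 64.8 CPM in sst1.1+ libraries. Both ins+ libraries were the lowest of the 8, with a log2 fold change of -1.0 ± 0.27 between ins+ and sst1.1+ cells (edgeR adjusted p = 0.0634). For txnl4a, a spliceosome component, sst1.1+ins+ libraries held 19.8, 14.0 and 21.6 CPM, ins+ libraries 27.3 and 24.1 CPM and sst1.1+ libraries 31.6, 43.6 and 22.9 CPM, which put every sst1.1+ins+ library below every other. The log2 fold change between sst1.1+ins+ and sst1.1+ cells was -0.82 ± 0.31 (edgeR adjusted p = 0.549). Another gene, txnl1, a proteasome-associated thioredoxin, was at 63.4, 66.4 and 54.4 CPM in sst1.1+ins+ libraries, 48.7 and 44.1 CPM in ins+ libraries and 67.6, 46.5 and 59.5 CPM in sst1.1+ libraries.

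Among the glutathione transferases, which conjugate glutathione to reactive compounds, 16 rows were present and 13 were tested. The row named gstp1 (ENSDARG00000104068), listed as gstp1.2 in the names table, was the one that passed in 2 comparisons. It was at 308.9, 272.2 and 271.7 CPM in sst1.1+ins+ libraries, 355.0 and 338.9 CPM in ins+ libraries, and 142.4, 144.2 and 112.2 CPM in sst1.1+ libraries. The 3 groups did not overlap, and all sst1.1+ libraries were far below the others. The log2 fold change was 1.38 ± 0.16 between ins+ and sst1.1+ cells (2.61-fold, edgeR adjusted p = 0.000524) and 1.1 ± 0.15 between sst1.1+ins+ and sst1.1+ cells (2.14-fold, edgeR adjusted p = 0.00943), the second lost without sst1.1+ins+ replicate 1 (adjusted p = 0.0624). A smaller difference of -0.29 separated sst1.1+ins+ from ins+ cells, with a 95% interval of -0.64 to 0.07. The related gstp2, listed as gstp1.1, took at most 27 counts in any library, and reads that match both copies could have been split or dropped by the counting.

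The microsomal mgst2 (ENSDARG00000071345), which in mammals can also make leukotriene C4, was at 30.1, 31.8 and 34.2 CPM in sst1.1+ins+ libraries, 15.2 and 16.6 CPM in ins+ libraries and 30.4, 39.0 and 33.2 CPM in sst1.1+ libraries. Both ins+ libraries were below all 6 others, and the sst1.1+ins+ and sst1.1+ libraries overlapped. It was 2.16-fold lower in ins+ than in sst1.1+ cells (log2 fold change -1.11 ± 0.27, edgeR adjusted p = 0.0442). That call was lost in 12 of 18 alternatives, among them the removal of any 1 of the 8 libraries, with adjusted p of up to 0.160. In sst1.1+ins+ against ins+ cells the log2 fold change was 1.01 ± 0.27 (edgeR adjusted p = 0.135), which passed in 1 of 18 alternatives, DESeq2 (adjusted p = 0.0206).

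The related mgst3 was at 38.1, 28.3 and 27.4 CPM in sst1.1+ins+ libraries, 43.1 and 46.5 CPM in ins+ libraries and 26.9, 30.7 and 30.7 CPM in sst1.1+ libraries, with both ins+ libraries above all others but an edgeR adjusted p of 0.239 against sst1.1+ cells. The theta-class gstt1b was at 5.30, 1.19 and 2.64 CPM in sst1.1+ins+ libraries, 11.1 and 7.75 CPM in ins+ libraries and 2.89, 0.934 and 2.74 CPM in sst1.1+ libraries. Its log2 fold change of 2.11 ± 0.86 between ins+ and sst1.1+ cells did not pass (edgeR adjusted p = 0.231). Levels of gstk1, the kappa-class enzyme, were 80.9 ± 9.34 CPM in sst1.1+ins+ cells, 66.9 ± 15.0 CPM in ins+ cells and 65.1 ± 8.60 CPM in sst1.1+ cells (SD, n = 3, 2 and 3). All matched transferase rows together reached 453.6 ± 33.6 CPM in sst1.1+ins+ cells, 506.3 ± 21.1 CPM in ins+ cells and 280.1 ± 8.06 CPM in sst1.1+ cells. Without gstp1 and mgst2 the sums were 137.4 ± 15.0, 143.4 ± 10.7 and 113.0 ± 14.8 CPM in the same order.

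The 3 genes that make and recharge glutathione, gclc, gclm and gsr, did not pass with edgeR, DESeq2 or limma-voom in any comparison, and 1 of them had an unadjusted p under 0.05 between ins+ and sst1.1+ cells. The catalytic subunit of glutamate-cysteine ligase, gclc, was at 74.6, 33.2 and 43.2 CPM in sst1.1+ins+ libraries, 32.0 and 39.4 CPM in ins+ libraries and 67.8, 67.2 and 53.8 CPM in sst1.1+ libraries. The ins+ libraries lay below the sst1.1+ libraries, while sst1.1+ins+ replicate 1 was the highest of all 8 and the other two sst1.1+ins+ libraries were below every sst1.1+ library. The log2 fold change between ins+ and sst1.1+ cells was -0.82 ± 0.32 (edgeR adjusted p = 0.215). Its modifier subunit gclm was at 15.12, 5.01 and 10.9 CPM in sst1.1+ins+ libraries, 11.2 and 0.587 CPM in ins+ libraries and 23.9, 13.8 and 6.89 CPM in sst1.1+ libraries, a spread within each group as wide as that between them. Glutathione reductase, gsr, averaged 13.6 ± 8.15 CPM in sst1.1+ins+ cells, 11.5 ± 8.78 CPM in ins+ cells and 8.16 ± 4.42 CPM in sst1.1+ cells (SD, n = 3, 2 and 3).

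Of the glutaredoxins, which reduce protein disulfides with glutathione or, for glrx3 and glrx5, take part in iron-sulfur cluster handling, none passed with edgeR, DESeq2 or limma-voom. Unadjusted p was under 0.05 for glrx between ins+ and sst1.1+ cells and between sst1.1+ins+ and sst1.1+ cells. Its level was 113.1, 88.6 and 107.7 CPM in sst1.1+ins+ libraries, 103.5 and 98.8 CPM in ins+ libraries, and 125.7, 159.7 and 135.4 CPM in sst1.1+ libraries. Every sst1.1+ library was above every other, with log2 fold changes of -0.47 ± 0.19 between ins+ and sst1.1+ cells (edgeR adjusted p = 0.218) and -0.44 ± 0.17 between sst1.1+ins+ and sst1.1+ cells (edgeR adjusted p = 0.551). Levels of glrx5 were 48.8, 42.5 and 44.6 CPM in sst1.1+ins+ libraries, 40.2 and 47.2 CPM in ins+ libraries and 53.8, 55.4 and 47.8 CPM in sst1.1+ libraries, with all sst1.1+ libraries just above the ins+ libraries.

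The genes nqo1, hmox1a and srxn1, targets of the stress-responsive transcription factor Nrf2 in mammals, were low in all groups. They do not stand for all targets of Nrf2. The quinone reductase nqo1 was at 8.20, 10.7 and 3.83 CPM in sst1.1+ins+ libraries, 14.3 and 1.64 CPM in ins+ libraries and 4.33, 1.99 and 0 CPM in sst1.1+ libraries. The inducible haem oxygenase hmox1a had 179, 0 and 0 counts in sst1.1+ins+ libraries, 2 and 7 counts in ins+ libraries and 1, 51 and 3 counts in sst1.1+ libraries, so nearly all its counts came from 1 library of each of 2 groups. Sulfiredoxin, srxn1, which restores overoxidized peroxiredoxins, averaged 3.45 ± 0.556 CPM in sst1.1+ins+ cells, 1.75 ± 1.42 CPM in ins+ cells and 2.47 ± 0.925 CPM in sst1.1+ cells (SD, n = 3, 2 and 3). None of the 5 genes of this role passed with edgeR, and none had an unadjusted p under 0.05 in any comparison with edgeR, DESeq2 or limma-voom.

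**Figure D3:**
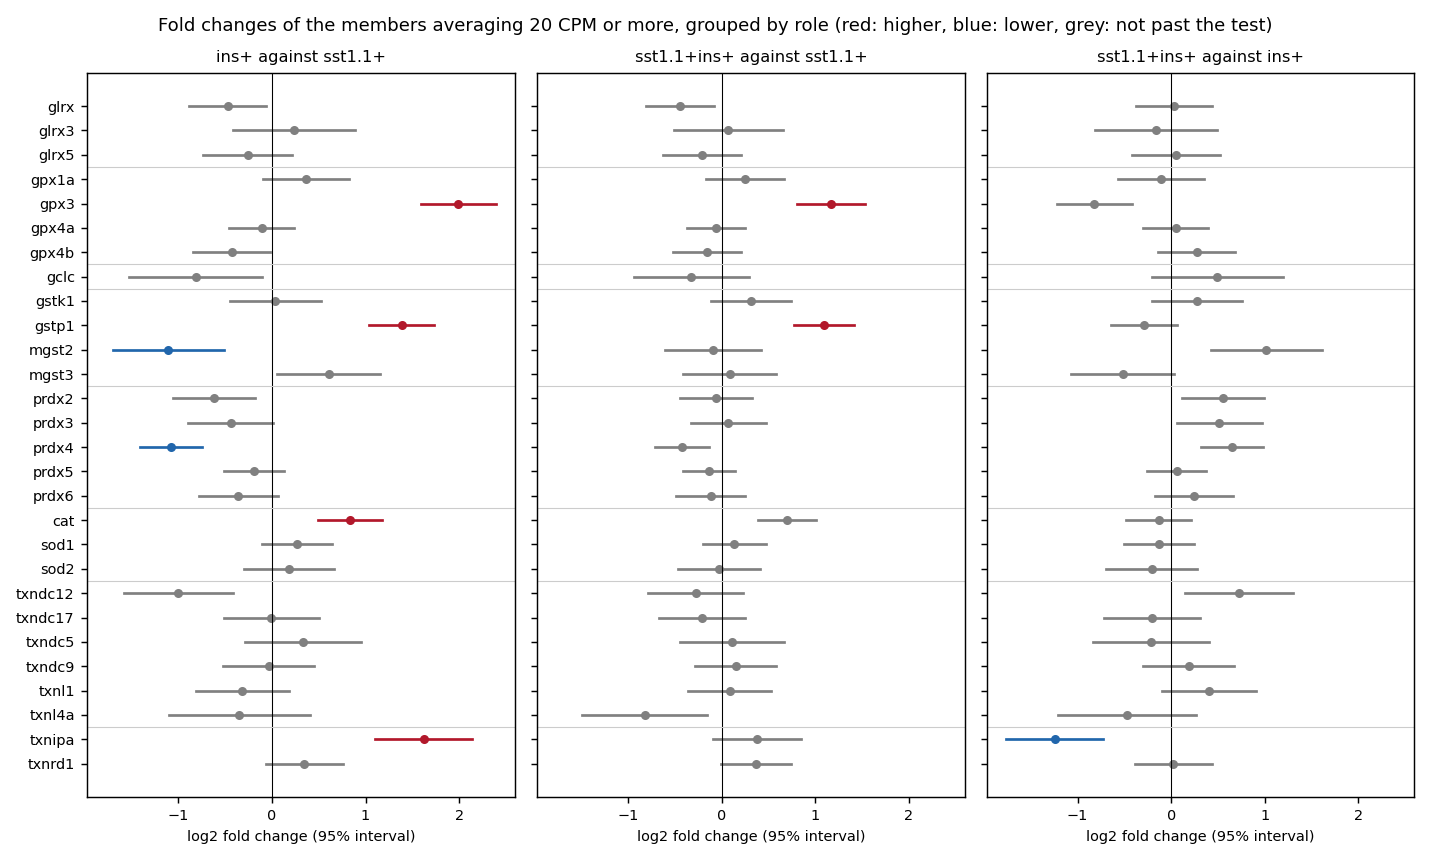
Log2 fold changes (x axis) with their 95% intervals for the 28 redox genes that averaged at least 20 CPM, in each of the 3 comparisons (panels), with genes grouped by role down the page. Red marks genes higher and blue genes lower past the test, and grey those that did not pass. In the panel of ins+ against sst1.1+ cells, gpx3, gstp1, cat and txnipa are higher and prdx4 and mgst2 lower.

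Depth and spread limited what could be called. The 28 redox genes averaging at least 20 CPM had a median SE of 0.21 (log2) between ins+ and sst1.1+ cells, and for 17 of them the 95% interval lay within 1 log2 unit of no change. The 29 tested genes under 20 CPM had a median SE of 0.995, none passed the test, and no interval lay within that range. Several of them differed sharply between the 2 ins+ libraries, replicate 1 against replicate 2: gclm had 225 and 10 counts, gpx7 had 12 and 128, nqo1 had 286 and 28 and prdx1 had 71 and 7.

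**Figure D4:**
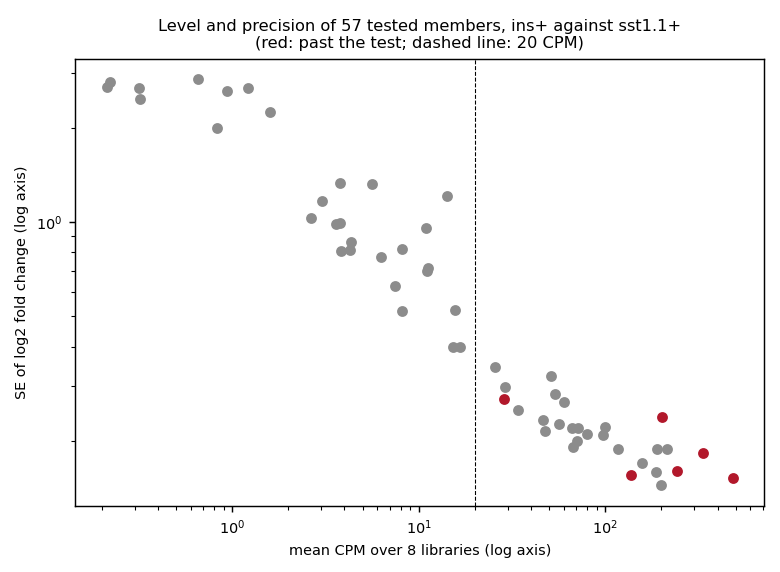
Mean CPM over 8 libraries (x axis, log) against the SE of the log2 fold change between ins+ and sst1.1+ cells (y axis, log) for the 57 tested redox genes. Each point is a gene, red points passed the test and the dashed line marks 20 CPM. All 6 genes that passed lie to the right of that line.

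Counting by separation rather than by test, 11 tested redox genes had every ins+ library above every sst1.1+ library and 14 had every ins+ library below, where 15.7% of all genes were above and 17.7% below. In sst1.1+ins+ against sst1.1+ libraries 7 were above and 6 below, where 7.39% of all genes were above and 7.27% below. In sst1.1+ins+ against ins+ libraries 14 were above and 11 below, where 16.4% of all genes were above and 14% below. The mean of sst1.1+ins+ cells lay between the means of the other groups for 33 of 57 tested redox genes (57.9%) and for 45.7% of all genes. For the 6 genes that passed between ins+ and sst1.1+ cells, the sst1.1+ins+ mean was placed on a log2 scale on which sst1.1+ cells are 0 and ins+ cells are 1. It lay at 0.838 for cat, 0.792 for gstp1, 0.587 for gpx3, 0.392 for prdx4, 0.245 for txnipa and 0.0807 for mgst2, so cat and gstp1 stood near ins+ cells and txnipa and mgst2 near sst1.1+ cells.

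Beyond the named families, 8 lists of genes of the same pathways were examined. Over all genes tested, edgeR called 1.61% higher and 2.42% lower in ins+ than in sst1.1+ cells. In the transsulfuration route, which makes cysteine for glutathione, cbsb and cth, genes of 2 successive steps, differed in opposite directions. The first enzyme, cystathionine beta-synthase (cbsb), was at 42.4, 27.5 and 35.2 CPM in sst1.1+ins+ libraries, 85.1 and 101.1 CPM in ins+ libraries and 18.8, 17.3 and 11.3 CPM in sst1.1+ libraries. It was 5.89-fold higher in ins+ than in sst1.1+ cells (log2 fold change 2.56 ± 0.29, edgeR adjusted p = 0.000418) and 2.66-fold lower in sst1.1+ins+ than in ins+ cells (edgeR adjusted p = 0.0432, lost in 9 of 18 alternatives). The next enzyme, cystathionine gamma-lyase (cth), was at 12.9, 7.90 and 7.503 CPM in sst1.1+ins+ libraries, 2.19 and 2.17 CPM in ins+ libraries and 22.7, 20.5 and 16.3 CPM in sst1.1+ libraries, and was 9.06-fold lower in ins+ than in sst1.1+ cells (log2 fold change -3.18 ± 0.51, edgeR adjusted p = 0.00467). For both enzymes the 3 groups did not overlap and sst1.1+ins+ cells were intermediate. Of the 16 tested genes of glutathione supply and turnover, 2 were higher in ins+ than in sst1.1+ cells, cbsb and lancl1, a protein that binds glutathione (2.59-fold, edgeR adjusted p = 0.0387, lost in 8 of 18 alternatives), and 1 was lower. The list's median log2 fold change was -0.01. The call of cbsb between sst1.1+ins+ and ins+ cells was lost without any 1 library other than sst1.1+ replicate 3 (adjusted p of up to 0.221), that of lancl1 without any 1 library other than sst1.1+ins+ replicate 2 (up to 0.162), and that of cth with limma-voom (0.0729).

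Among the 17 tested regulators around Nrf2 and its inhibitor Keap1, 1 was higher and 2 were lower in ins+ than in sst1.1+ cells, with a list median of -0.11. The repressor bach1b, which competes with Nrf2 for target sites in mammals, was at 3.13, 2.08 and 3.59 CPM in sst1.1+ins+ libraries, 18.2 and 15.4 CPM in ins+ libraries and 1.44, 2.92 and 2.43 CPM in sst1.1+ libraries (ins+ against sst1.1+ log2 fold change 2.89 ± 0.62, edgeR adjusted p = 0.0235). The autophagy receptor sqstm1, which can sequester Keap1, was at 153.3, 183.8 and 190.0 CPM in sst1.1+ins+ libraries, 80.7 and 91.97 CPM in ins+ libraries and 265.4, 270.1 and 433.9 CPM in sst1.1+ libraries. It was 3.74-fold lower in ins+ than in sst1.1+ cells (edgeR adjusted p = 0.000878). The small Maf gene maff, a dimerization partner of Nrf2 that is itself induced by stress, was 2.28-fold lower in ins+ cells (edgeR adjusted p = 0.0241). The Nrf2 gene nfe2l2a itself was at 124.9, 120.6 and 132.6 CPM in sst1.1+ins+ libraries, 124.0 and 148.2 CPM in ins+ libraries and 95.2, 68.6 and 88.7 CPM in sst1.1+ libraries, below all others in sst1.1+ cells but not past the test (ins+ against sst1.1+ edgeR adjusted p = 0.0693). The call of bach1b was lost without ins+ replicate 1 or 2 or sst1.1+ replicate 1 (adjusted p of up to 0.111), and that of maff without ins+ replicate 2 or sst1.1+ replicate 2 or 3 (up to 0.181) and when only the 2 groups were fitted (0.0661).

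Of the 20 tested genes that supply NADPH, 2 were higher in ins+ than in sst1.1+ cells and none lower, with a list median of -0.31. By unadjusted p, 4 of the 20 were under 0.05, as were 17.6% of all genes. DESeq2 also called 2 higher and none lower, where it called 643 higher and 1034 lower of all 16418 genes. The mitochondrial transhydrogenase nnt was at 131.4, 129.1 and 150.5 CPM in sst1.1+ins+ libraries, 194.6 and 247.4 CPM in ins+ libraries and 102.0, 122.0 and 122.2 CPM in sst1.1+ libraries (ins+ against sst1.1+ log2 fold change 0.94 ± 0.18, edgeR adjusted p = 0.0109). The cytosolic isocitrate dehydrogenase idh1 was at 151.1, 145.3 and 138.4 CPM in sst1.1+ins+ libraries, 179.1 and 211.1 CPM in ins+ libraries and 81.9, 101.5 and 134.4 CPM in sst1.1+ libraries (1.84-fold, edgeR adjusted p = 0.0369, lost in 8 of 18 alternatives). For both genes, all ins+ libraries were above all others. The call of nnt was lost without ins+ replicate 2 (adjusted p = 0.132), and that of idh1 without any 1 library other than sst1.1+ replicate 3 (up to 0.217).

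In the list of ER disulfide formation, 13 genes were tested, 1 was higher and 1 lower in ins+ than in sst1.1+ cells, and the median was -0.44. The disulfide isomerase pdia4 was at 93.3, 72.5 and 59.08 CPM in sst1.1+ins+ libraries, 27.9 and 34.6 CPM in ins+ libraries and 89.7, 92 and 115.4 CPM in sst1.1+ libraries. It was lower in ins+ than in sst1.1+ cells (log2 fold change -1.66 ± 0.25, edgeR adjusted p = 0.00322) and higher in sst1.1+ins+ than in ins+ cells (1.26 ± 0.25, edgeR adjusted p = 0.0398, lost in 9 of 18 alternatives). The oxidase ero1lb, the partner of disulfide isomerases that produces peroxide, was 1.63-fold higher in ins+ than in sst1.1+ cells (edgeR adjusted p = 0.0438, lost in 10 of 18 alternatives). Among the 21 tested genes in the list of selenoproteins and their synthesis, selm alone passed. That list left out the gpx and txnrd genes, which are described above. It was at 90.5, 86.3 and 78.7 CPM in sst1.1+ins+ libraries, 37.4 and 37.7 CPM in ins+ libraries and 113.9, 84.7 and 89.3 CPM in sst1.1+ libraries. It was lower in ins+ than in sst1.1+ cells (-1.35 ± 0.21, edgeR adjusted p = 0.00345) and higher in sst1.1+ins+ than in ins+ cells (1.18 ± 0.21, edgeR adjusted p = 0.0210), a call lost without any 1 of the sst1.1+ins+ and ins+ libraries (adjusted p of up to 0.132). The call of pdia4 between sst1.1+ins+ and ins+ cells was lost without any 1 library other than sst1.1+ins+ replicate 3 and sst1.1+ replicate 3 (up to 0.156), and that of ero1lb without any 1 library other than sst1.1+ins+ replicate 2 (up to 0.305).

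The lists of oxidant repair and sensing (12 tested), metal and haem handling (14 tested) and oxidant producers (8 tested) held no gene past the test with edgeR in any comparison. Between ins+ and sst1.1+ cells, unadjusted p was under 0.05 for 5, 6 and 1 of their genes, and DESeq2 called 1, 3 and 0, where 17.6% of all genes had such a p. Between sst1.1+ins+ and sst1.1+ cells no gene of any of the 8 lists passed with edgeR, 0 to 4 genes of each list had an unadjusted p under 0.05, and DESeq2 called 1 regulator and 1 gene of glutathione supply. Of all 16418 genes, 7.89% had such a p in that comparison, and DESeq2 called 272.

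**Figure D5:**
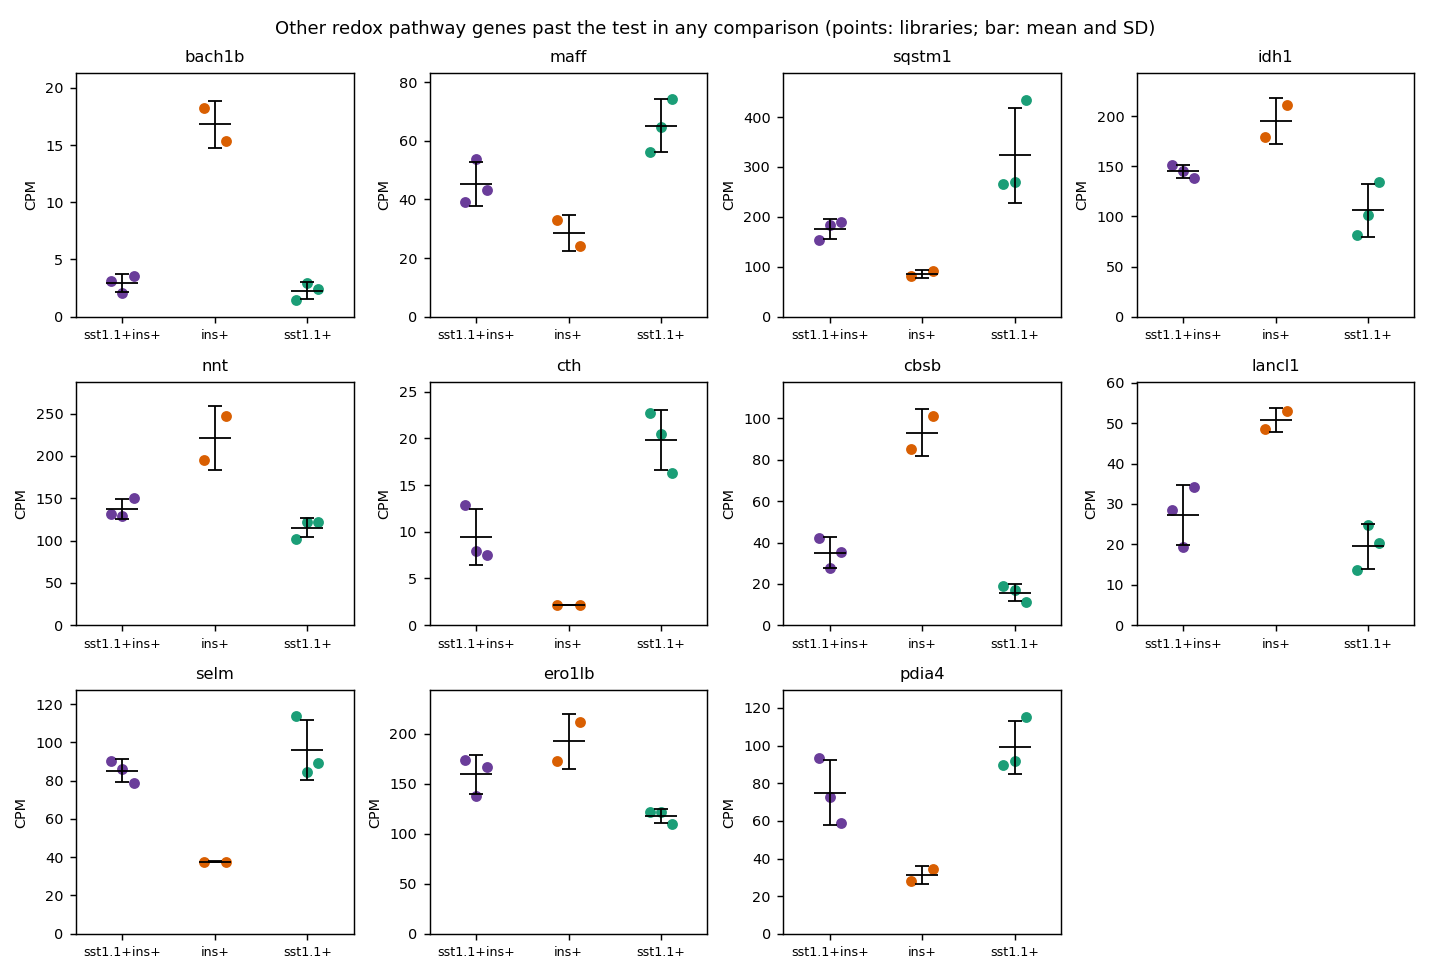
CPM (y axis, linear from 0) of the 11 other redox pathway genes that passed the test in any comparison, in each library of the 3 groups (x axis). Points are libraries and the bar with its error is the mean and SD. For cbsb, nnt and idh1 the ins+ libraries are above all others, and for cth, sqstm1, selm and pdia4 they are below all others.

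Sums of some other gene sets were also lower in ins+ than in sst1.1+ cells, while acinar and mesenchymal sums overlapped. Immediate early genes, which dissociation and stress induce within minutes, summed to 5101, 5542 and 4782 CPM in sst1.1+ins+ libraries, 2422 and 2588 CPM in ins+ libraries and 7052, 6271 and 5924 CPM in sst1.1+ libraries, and 12 of the 22 tested were lower and 1 higher in ins+ than in sst1.1+ cells. Ductal markers summed to 577.6 to 840.8 CPM in sst1.1+ins+ libraries, 358.1 and 295.3 CPM in ins+ libraries and 725.2 to 1069 CPM in sst1.1+ libraries, with 4 of 10 lower in ins+ than in sst1.1+ cells. Among these markers, cftr was at 0 in every ins+ and sst1.1+ library but had counts in sst1.1+ins+ cells. The list as a whole did not follow cftr. Between sst1.1+ins+ and sst1.1+ cells, 7 of the 10 ductal markers had a negative log2 fold change and 3 a positive one (median -0.39). No ductal marker passed with edgeR in that comparison. Alpha-cell markers summed to 24450 to 34100 CPM in sst1.1+ins+ libraries, 18654 and 11352 CPM in ins+ libraries and 33682 to 65962 CPM in sst1.1+ libraries, with 2 of 3 lower in ins+ cells. Immune markers summed to 55.8 to 126.5 CPM in sst1.1+ins+ libraries, 98.2 and 78.6 CPM in ins+ libraries and 199.7 to 315.7 CPM in sst1.1+ libraries, with lcp1 and marco at 0 everywhere. Acinar markers, none of which passed with edgeR (2 of 13 had an unadjusted p under 0.05 between ins+ and sst1.1+ cells, and DESeq2 called 2 lower there), summed to 48.1 to 108.3 CPM in sst1.1+ins+ libraries, 24.7 and 76.2 CPM in ins+ libraries and 40.9 to 177.8 CPM in sst1.1+ libraries. Mesenchymal markers summed to 10.4, 22.7 and 19.7 CPM in sst1.1+ins+ libraries, 23.8 and 15.3 CPM in ins+ libraries and 13.2, 32.9 and 100.2 CPM in sst1.1+ libraries, the highest being sst1.1+ replicate 3. No mesenchymal marker passed with edgeR (2 of 7 had an unadjusted p under 0.05 between ins+ and sst1.1+ cells), and DESeq2 called 1 lower there. Pan-endocrine markers summed to 12131 to 12643 CPM in sst1.1+ins+ libraries, 14120 and 15337 CPM in ins+ libraries and 10926 to 11920 CPM in sst1.1+ libraries. Of these 9 markers, 2 were higher in ins+ than in sst1.1+ cells. The part of these gene sets in the differences of prdx4, mgst2, cth, sqstm1, maff, pdia4 and selm was not tested. Nor was it tested for the genes higher in ins+ cells, namely gpx3, gstp1, cat, txnipa, cbsb, lancl1, bach1b, nnt, idh1 and ero1lb.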

How the data were processed

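Raw counts of reads per gene were deposited by the authors for 8 libraries of fluorescence-sorted zebrafish pancreas cells. Per the submitters' processing notes, Trim Galore, HISAT2, featureCounts and the GRCz11 assembly were used. Not given in the sources used here are tool versions, the annotation, strandedness and how multiply aligned reads were counted, so overlapping genes and near-identical copies are uncertain. The table's 92 ERCC spike-in rows (0.0145 to 0.0501% of counts) and 1 EGFP row (0.0200 to 0.810%) were left out of totals and tests.

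The test was edgeR's quasi-likelihood F-test (edgeR 4.0.16, R 4.3.3) after the default expression filter and TMM scaling, in 1 fit of group means to all 8 libraries, which left 5 residual degrees of freedom, with Benjamini-Hochberg adjustment over 16418 genes at 0.05. Each SE was obtained from the log2 fold change and its F statistic, and the 95% interval uses the test's total degrees of freedom. CPM values are means with SD over libraries, and 3 counts, taken as the floor, gave 0.101 to 0.176 CPM; floors cover counting error only. The position of sst1.1+ins+ cells used log2 CPM with a prior count of 2. The test was tried on simulated counts of 16418 genes with 50 genes changed at each fold size, 200 in all. The changed genes were drawn from all genes averaging over 2 CPM. The rates therefore do not describe the redox genes averaging at least 20 CPM. At 2-fold the test recovered 3, 1 and 4 of 50 in the 3 comparisons (ins+ against sst1.1+, sst1.1+ins+ against sst1.1+, sst1.1+ins+ against ins+). At 4-fold it recovered 21, 24 and 24, and at 16-fold 38, 38 and 43, with 3, 6 and 4 false calls. Alternatives were RLE scaling, plain library totals, totals without hormone and mitochondrial genes, DESeq2 1.42.0, limma-voom with quality weights (limma 3.58.1), other filters, fits of 2 groups, a replicate block, thinning to the smallest total, and each library left out.

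Of the 62 redox gene identifiers, 61 were in the names table used, which gives some rows another symbol. Genes named by rule are those past the test and the 3 with the smallest p per role. Also named by rule are those with non-overlapping groups and at least 20 CPM in 1 group. From each pathway list, those past the test and up to 2 more were taken. Other genes of the same families, such as sod2, gpx4a and txn2, are given beside them. The redox genes, lists and tests were chosen with earlier results of these data known. Whether replicate numbers pair the libraries is not known, and the main fit used no replicate block. No genome of the files' build was used, so no coordinates or sequences are given.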

Additional observations from a re-analysis of the deposited data

How the results depend on the processing

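Of 57 tested redox genes, 6 passed between ins+ and sst1.1+ cells, and 18 alternatives were tried. Under the alternatives that kept both ins+ libraries, 5 to 9 passed. The count was 9 with DESeq2 or with no filter on low counts, and 5 without any 1 sst1.1+ins+ or sst1.1+ library. Without ins+ replicate 1, the group rests on ins+ replicate 2, which held 0, 0 and 10 counts of txn, gpx1b and gclm. Their log2 fold changes then came to -12.4, -9.79 and -4.65. In each of the 18, gpx3, gstp1, txnipa and prdx4 passed in the same direction, with adjusted p of at most 0.0264. Between sst1.1+ins+ and sst1.1+ cells the count of 2 became 4 with DESeq2 and 5 with no filter, and 1 to 3 with 1 library left out. Between sst1.1+ins+ and ins+ cells the count of 1 became 4 with DESeq2, 3 with limma-voom, 3 with no filter and 2 with the replicate block, and 0 to 2 with 1 library left out; with edgeR 7 genes had an unadjusted p under 0.05 there, or 12.3% against 12.1% of all genes. The replicate block gave 6 and 2 in the first 2 comparisons. With it, adjusted p of bach1b, maff, ero1lb and mgst2 between ins+ and sst1.1+ cells came to 0.0583, 0.0574, 0.0816 and 0.0858, and those of pdia4, cbsb and gpx3 between sst1.1+ins+ and ins+ cells to 0.0597, 0.0850 and 0.0286. In the first comparison txnipb, pdia6, pdia3 and fth1a passed with it (0.0463, 0.0291, 0.0454 and 0.0206). Deviations from the group means correlated at -0.0407 to 0.0316 for same-numbered libraries and at -0.0607 to 0.0564 for differently numbered ones. The deviations of the 2 ins+ libraries mirror each other by construction. These values therefore cannot settle whether the numbers pair libraries.

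The log2 fold change of txn between sst1.1+ins+ and ins+ cells, -0.40, became 9.82 without ins+ replicate 1, which leaves the ins+ library with 0 txn counts (range over left-out libraries -1.39 to 9.82). Over all genes, 662, 34 and 151 passed in the 3 comparisons in this order with edgeR, against 1677, 272 and 775 with DESeq2 and 1276, 229 and 560 with no filter. They numbered 383 in the first when only its 2 groups were fitted, and 99 in the second with limma-voom. Between ins+ and sst1.1+ cells, limma-voom called 353 genes higher and 262 lower, where edgeR called 265 and 397. The cause of these changes was not tested.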

Other observations

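Further genes named by the selection rule did not pass with edgeR and are given as values of ins+ against sst1.1+ cells. The glutathione-degrading enzyme chac1 had a log2 fold change of -0.74 (adjusted p = 0.0525) and the amino acid transporter subunit slc3a2a one of 0.77 (adjusted p = 0.0831). The methionine sulfoxide reductase msrb1b was at 1.07 (adjusted p = 0.0565) and the ferritin heavy chain gene fth1a at 0.60 (adjusted p = 0.0595). The disulfide isomerases pdia6 and pdia3 were at -0.75 and -0.59 (adjusted p = 0.0551 and 0.0662). The iron-responsive aco1 was at 1.0 (adjusted p = 0.108) and sesn1, a sestrin, at 1.31 (adjusted p = 0.190). Negative values were also found for glrx2 (-0.34, adjusted p = 0.893), TALDO1 (-0.70, 0.215), me3 (-0.32, 0.495) and rbx1 (-0.56, 0.182). The same held for sqrdl (-1.49, 0.246), sepp1a (-2.17, 0.222) and pon1 (-6.04, 0.132), while ncf4 was at 1.65 (0.819). DESeq2 gave an adjusted p under 0.05 for chac1, slc3a2a, msrb1b, fth1a, pdia6, pdia3, aco1 and pon1 in this comparison.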
